A study of Rattus norvegicus with 4 samples.

Results

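The flavin-containing monooxygenases measured here are the 4 rat genes Fmo1, Fmo2, Fmo4 and Fmo5, out of 14506 genes measured in liver. The 4 members were given by name, and each had 1 probe set of the array that carried its symbol alone (10769361 for Fmo1, 10769370 for Fmo2, 10769349 for Fmo4 and 10817686 for Fmo5). The family was selected on measured values, the log2 levels of its genes on the lean against the obese arrays, so those levels and differences are given as a description. Other genes of the family were not analysed here. RNA came from liver of untreated male rats of the WNIN/Ob strain, 4 months old, of the lean or the obese phenotype. The strain, bred in Hyderabad, has a lean and an obese phenotype, and both ate stock diet freely. A single pool was made per phenotype, each from the RNA of 4 animals. From each pool 100 ng of RNA was labelled and read on 2 arrays, called original and technical replicate in the labels. The arrays therefore show the error of measurement of 1 pool per phenotype, spread between animals was not measured, and no p-value across animals exists.

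Flavin-containing monooxygenases are enzymes of the endoplasmic reticulum that carry bound FAD and draw electrons from NADPH. The reduced flavin takes up oxygen and holds it as a peroxide until a substrate with an exposed nitrogen or sulphur atom arrives, and the products are N-oxides and S-oxides of drugs, dietary amines and thiols. Fmo1 is a broad-acting form that is prominent in rat liver and kidney and also turns hypotaurine into taurine. Fmo2 is best known from lung, Fmo4 is a less studied form, and Fmo5 acts on carbonyl compounds by inserting oxygen beside the carbonyl carbon.

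Fmo4, Fmo1 and Fmo2 lie next to each other, in that order, among the genes measured on chromosome 13, and Fmo5 lies on chromosome 2. The promoters of Fmo1 and of the other members with an entry in the promoter table, Fmo2 and Fmo5 (3 of 4 members, without Fmo4), are shown so that the gene past the rule used below can be read beside its relatives. The sequences are from RefSeq on build GRCr8, cover 250 bases before and 50 bases from the start of the gene on, and run 5′ to 3′ on the strand of the gene. Capitals mark matches to the motifs named after the sequences. The windows are chr13:77747617-77747916 on the minus strand for Fmo1, chr13:77777485-77777784 on the minus strand for Fmo2 and chr2:187910714-187911013 on the plus strand for Fmo5. A gene may have further start sites, which were not examined.
Fmo1: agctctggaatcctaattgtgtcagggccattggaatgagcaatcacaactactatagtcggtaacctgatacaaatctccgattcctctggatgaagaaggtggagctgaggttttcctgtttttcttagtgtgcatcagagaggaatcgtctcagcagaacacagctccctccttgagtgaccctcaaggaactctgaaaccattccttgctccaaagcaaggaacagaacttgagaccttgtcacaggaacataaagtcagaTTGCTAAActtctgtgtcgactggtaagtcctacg
Fmo2: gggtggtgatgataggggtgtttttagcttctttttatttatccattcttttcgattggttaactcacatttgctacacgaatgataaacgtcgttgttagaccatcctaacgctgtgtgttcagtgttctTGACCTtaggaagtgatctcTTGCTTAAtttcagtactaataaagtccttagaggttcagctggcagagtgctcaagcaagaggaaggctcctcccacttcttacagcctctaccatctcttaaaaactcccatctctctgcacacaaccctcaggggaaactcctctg
Fmo5: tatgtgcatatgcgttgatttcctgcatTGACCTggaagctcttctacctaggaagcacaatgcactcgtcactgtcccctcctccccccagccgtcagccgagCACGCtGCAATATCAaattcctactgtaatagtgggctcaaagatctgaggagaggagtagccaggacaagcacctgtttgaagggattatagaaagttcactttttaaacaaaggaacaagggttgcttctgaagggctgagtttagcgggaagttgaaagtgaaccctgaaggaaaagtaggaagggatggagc

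The Fmo1 window held a single match among 8 motifs searched on both strands, TTGCTAAA, which fits the C/EBP pattern TTGCNNAA. This pattern also occurred in the Fmo2 window, as TTGCTTAA, and in 10.6% of 33469 rat promoters of the same length. The nuclear receptor core AGGTCA, read on the other strand as TGACCT, was in the windows of Fmo2 and Fmo5 and in 16.2% of all promoters. The Fmo5 window also held the dioxin receptor core GCGTG (as CACGC, in 29.7% of promoters) and the antioxidant pattern TGANNNNGC (as GCAATATCA, in 40.5%), and no marked matches overlapped. The remaining patterns were TATAAA (14.2% of promoters), the forkhead pattern TGTTTAC (3.78%), the HNF4 pattern CAAAGTCCA (0.391%) and the STAT pattern TTCNNNGAA (8.87%). None of these letters occurred in the 3 windows. The windows were 45.7% G and C for Fmo1, 43.3% for Fmo2 and 48% for Fmo5, against a median of 51.7% over all promoters.

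Fmo1 transcript was lower in the obese pool and the other 3 members lay near their lean levels. On the lean arrays Fmo1 read 10.39 (original) and 10.45 (technical replicate) on the log2 intensity scale, and on the obese arrays 9.05 and 8.79. The pools did not overlap, and their nearest arrays lay 1.34 apart. The lean mean was 10.42 ± 0.04 and the obese mean 8.92 ± 0.18 (SD of 2 arrays), a difference of -1.50 (obese minus lean, log2). Fmo1 was therefore 2.83-fold lower in the obese pool, with a range of 2.53 to 3.16 over the 4 ways to pair arrays of the pools. On the linear scale of the deposited intensities the lean arrays read 1345 and 1402 and the obese arrays 530.5 and 444.1. The difference of Fmo1 was larger in size than that of 98.6% of genes, and 164 genes had a more negative one. In bulk liver RNA, fewer cells that carry a transcript and less of it per cell cannot be told apart.

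Fmo5 lay slightly lower in the obese pool. It read 8.66 and 8.67 on the lean arrays and 8.49 and 8.27 on the obese arrays. Both obese arrays lay below both lean arrays, with 0.17 between the nearest. The difference was -0.29 (range over array pairs -0.40 to -0.17), with means of 8.67 ± 0.01 and 8.38 ± 0.15 (SD of 2 arrays), which is a fold of 1.22 lower (1.13 to 1.32). This is below the 1.5-fold rule used here, and 77.9% of genes had a smaller difference.

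Fmo2 did not differ between the pools beyond the spread of their arrays. It read 5.61 and 5.58 on the lean arrays and 5.62 and 5.55 on the obese arrays, so the pools overlapped. The difference was -0.01 (-0.05 to 0.04), and 2.72% of genes had a smaller one. Fmo2 lay only 0.11 above 5.48, the median level of all genes that serves here as a level filter, and with no detection call used, its level is not shown to be above background.

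Fmo4 differed between the obese arrays more than between the pools. It read 5.90 and 5.84 on the lean arrays, 6.31 on the obese original array and 5.85 on the obese technical replicate array. The obese technical replicate array fell between the lean arrays, and the obese original array stood alone above them. The difference of the means was 0.20 (-0.05 to 0.46), against 0.46 between the obese arrays themselves. That gap was wider than the gap of 91.0% of genes between the same arrays.

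**Figure D1:**
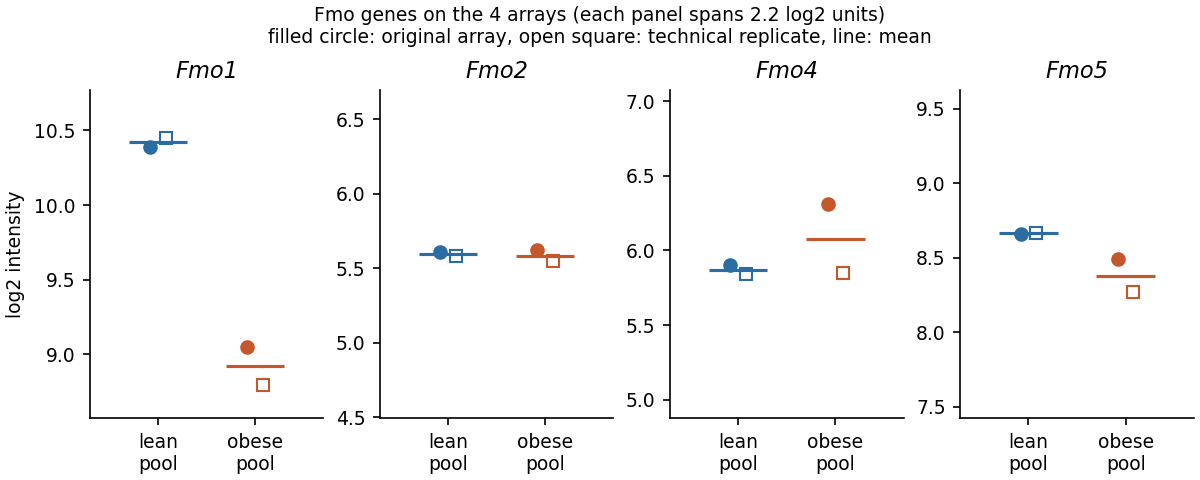
Log2 intensity (vertical axis) of Fmo1, Fmo2, Fmo4 and Fmo5 on each array, by pool (horizontal axis). Filled circles are original arrays, open squares technical replicate arrays and lines the mean of 2 arrays, and each panel spans the same log2 distance. Fmo1 drops from 10.42 to 8.92, Fmo5 from 8.67 to 8.38, and Fmo2 and Fmo4 overlap between the pools.

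A gene was called lower or higher when the pools differed by a factor of at least 1.5, the log2 gap between their nearest arrays was 0.25 or more and the higher pool reached 5.48. By this rule 1 of the 4 members was lower in the obese pool, as were 2.43% of all genes, and 0 of the 4 were higher, as were 2.19% of all genes. These shares are 352 and 317 of 14506 genes, of which only 7555 reached the level filter and could be called. Fmo1 also passed the 2-fold rule with a gap of 0.5, which 1.48% of all genes passed in the lower and 0.572% in the higher direction. Arrays of the pools did not overlap for 2 members, Fmo1 and Fmo5, both lower in the obese pool, and for 18.5% of all genes in that direction, with 27.5% of all genes separated in the other direction and 0 members. The median difference was -0.15 over the 4 members and 0.03 over all genes. The members were chosen with these differences known, so nothing is read from their counts. All 4 members lay at or above the level filter in both pools.

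**Figure D2:**
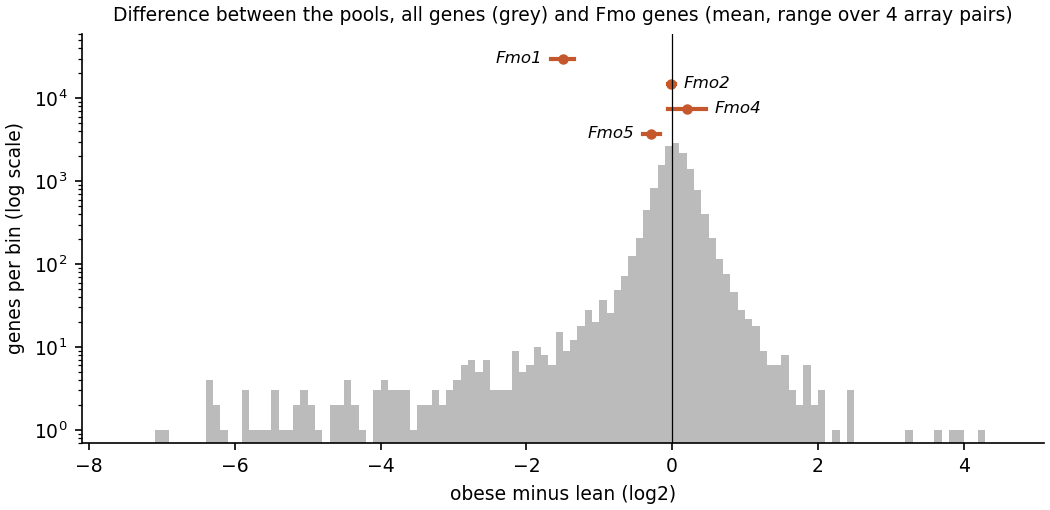
Number of genes (vertical axis, log scale) by difference between the pools (horizontal axis, obese minus lean, log2) in grey, with the mean and the range over 4 array pairs of each Fmo gene in orange. Heights of the orange marks only separate the genes. Fmo1 lies at -1.50, outside the bulk of genes, and Fmo5, Fmo2 and Fmo4 lie at -0.29, -0.01 and 0.20.

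Of the other members, Fmo5 lay well above the level filter in both pools, so Fmo1 was set against it within each array. Such a difference does not depend on how arrays are scaled to each other. Only its change between pools is read, because levels of different probe sets cannot be set against each other. Fmo1 minus Fmo5 was 1.73 and 1.78 on the lean and 0.56 and 0.52 on the obese arrays, a change of -1.21 (-1.26 to -1.17 over array pairs). Both obese arrays lay below both lean arrays by more than arrays of a pool lay apart. The family was selected on these same levels, so the unequal change is a description of these pools. Fmo2 and Fmo4 lay within 0.59 of the level filter in their higher pool and are not shown to be above background, so Fmo1 is not set against them.

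The obese arrays differed from each other in all 4 members in the same direction. Fmo1 was 0.26, Fmo2 0.07, Fmo4 0.46 and Fmo5 0.22 higher on the obese original than on the obese technical replicate array. Among all genes at or above the level filter 77.5% were higher on the obese original array, with a median of 0.13. That array also had a higher upper quartile of log2 intensity, 6.62 against 6.50 to 6.52 on the others. Between the lean arrays the members differed by -0.06 to 0.06.

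The RNA of both pools carried the abundant hepatocyte transcripts, and the lean pool also carried those of skeletal muscle. None of 8 hepatocyte markers passed the 1.5-fold rule, and their differences ran from -0.02 to 0.41, with 0.08 for albumin (Alb), 0.41 for Apoa1 and 0.12 for transthyretin (Ttr). All 9 muscle markers were lower in the obese pool, with a median of -6.25, and their summed intensity was 26016 and 27221 on the lean and 371 and 382 on the obese arrays. The first of these on the list were Acta1 (-6.22), Ckm (-5.89) and Myh1 (-6.98). Of 6 stellate cell markers 3 were lower, Des (-4.05), Dcn (-1.90) and Col1a1 (-0.97). The other 3, Reln (-0.03), Lrat (-0.34) and Pdgfrb (0.11), passed neither way. The list had a median of -0.65 and summed intensities of 1482 and 1580 on the lean and 631 and 525 on the obese arrays. It includes Des, a gene muscle also expresses. The part of muscle or stellate cell RNA in the difference of Fmo1, or of any other gene named here, was not tested. None of the 5 lung markers and none of the 6 kidney tubule markers reached the level filter in either pool; these are the organs in which Fmo2 and Fmo1 are prominent. None of the 5 measured endothelial, 6 adipocyte and 6 macrophage markers passed the rule, with medians of -0.09, -0.31 and -0.24.

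Of the 7551 other genes that reached the level filter and carry a proper symbol, Aox3 was nearest to Fmo1 in pattern. Likeness was the Euclidean distance over the 4 arrays after each gene was centred on its own mean, and with 2 pools it mostly compares the size of a single difference. Aox3, an aldehyde oxidase that also oxidises foreign compounds, had a distance of 0.045. It read 9.83 and 9.85 on the lean and 8.45 and 8.24 on the obese arrays, a difference of -1.50 that equals a fold of 2.82 lower (2.60 to 3.05). Aox3 was picked for this likeness, so the closeness is a description.

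The next nearest genes were Nat8f2 (distance 0.11), of the N-acetyltransferase 8 family, Rcan2 (0.12), a regulator of calcineurin, and Acsm3 (0.13), a mitochondrial medium-chain acyl-CoA synthetase. Slc9a7 (0.17), a sodium-proton exchanger, and Lgals1 (0.18), which encodes galectin-1, followed. Their differences were -1.43 for Nat8f2, -1.60 for Rcan2, -1.61 for Acsm3, -1.63 for Slc9a7 and -1.58 for Lgals1. The obese level of Slc9a7, 3.96, was under the level filter, so the size of its fold is uncertain.

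**Figure D3:**
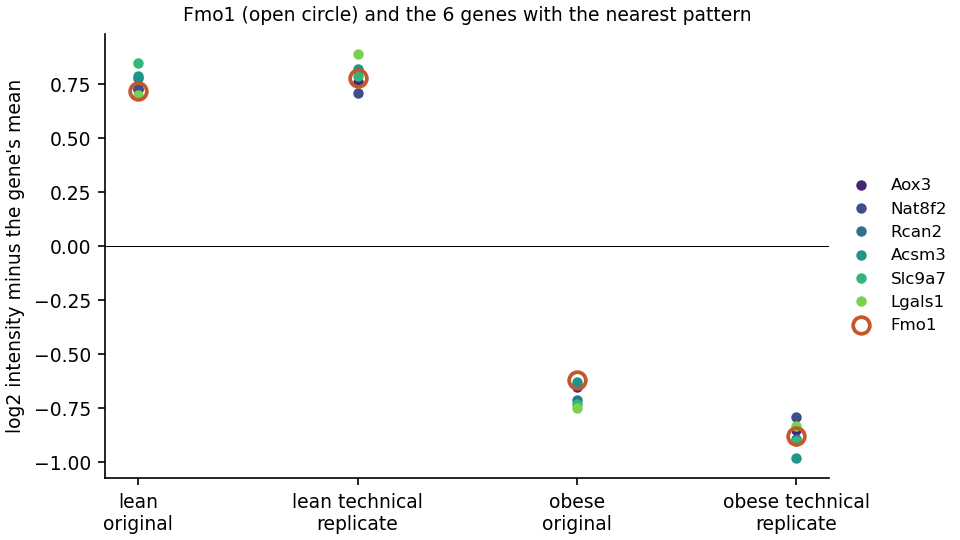
Log2 intensity minus the gene's own mean (vertical axis) on each of the 4 arrays (horizontal axis) for Fmo1 (open circles) and the 6 genes nearest to it (filled circles). Aox3, at a distance of 0.045, nearly coincides with Fmo1 on each array.

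Other enzymes that use a flavin or a molybdenum cofactor, or that work beside them, did not share a direction. Of 29 measured genes on this list 2 were lower, 2 higher and 25 neither (2.43% lower and 2.19% higher over all genes). Their median was 0.05, against 0.03 over all genes and 0.08 for all genes that reached the level filter, as 26 of the 29 did. All genes called lie among the 7555 that reached it. Leaving out the obese technical replicate array gave a median of 0.18, and leaving out either lean array 0.09. Aox3 (-1.50) and Hao2, a peroxisomal 2-hydroxy acid oxidase that carries FMN, were the lower genes. Hao2 read 9.86 and 9.90 on the lean and 8.86 and 8.69 on the obese arrays, a fold of 2.15 (2.00 to 2.31). The higher genes were the quinone reductase Nqo1, at 7.25 and 7.40 on the lean and 8.43 and 8.22 on the obese arrays (2.00-fold, 1.77 to 2.27), and Cyb5b, a mitochondrial cytochrome b5 that passes electrons to N-reducing enzymes (1.61-fold, 1.49 to 1.75). Hao1, the glycolate oxidase and the brightest on the list, differed by 0.01.

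Trimethylamine and its N-oxide link these monooxygenases to choline, betaine and carnitine. Of 15 measured genes of choline and methylamine handling 2 were higher and 1 lower, and 13 of the 15 differences lay above 0. All 15 reached the level filter. Of the 7555 genes that did so 317 were higher and 352 lower by the rule, and 63.6% had differences above 0, with a median of 0.08. The median of the 15 was 0.34. Leaving out the obese original array gave 0.20, with 11 of the 15 above 0, against 0.02 and 53.6% for all genes that reached the filter. Crot, the peroxisomal carnitine octanoyltransferase, was 2.06-fold higher (1.82 to 2.32) and Bbox1, which makes carnitine from butyrobetaine, 1.74-fold (1.56 to 1.93). Slc44a2, a choline transporter-like protein, was 1.61-fold lower (1.55 to 1.68). Bhmt, the brightest on the list, transfers a methyl group from betaine to homocysteine. Its lean level was 12.82 and its obese level 13.29, a difference of 0.47 that is below the rule.

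Fmo1 can form taurine, and genes of taurine and sulphur amino acids went both ways. Of 18 measured genes 2 were higher, 2 lower and 14 neither (2.19% higher and 2.43% lower over all genes). Their median was 0.07, against 0.08 for all genes that reached the level filter, as 17 of the 18 did. Ethe1, a mitochondrial sulphur dioxygenase, read 8.19 and 8.37 on the lean and 9.09 and 9.11 on the obese arrays (1.76-fold higher, 1.65 to 1.89), and the glutathione synthetase Gss was 1.53-fold higher (1.40 to 1.67). The call of Gss was lost without the lean technical replicate array (0.58) or without the obese original array (0.51). Got1, an aminotransferase that also acts on cysteine sulphinate, was 1.91-fold lower (1.85 to 1.97). The taurine carrier Slc6a6 was 1.63-fold lower (1.40 to 1.89), and its difference of -0.70 became -0.56, below the rule, without the obese technical replicate array. Mat1a, which makes S-adenosylmethionine and was the brightest on the list, differed by 0.01.

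Among 22 measured transcription factors of liver identity, foreign compound sensing and hormone response 1 was higher, 2 were lower and 19 neither. Over all genes 2.19% were higher and 2.43% lower. The median of the 22 was -0.02, against 0.08 for all genes that reached the level filter, as all 22 did. Leaving out the obese technical replicate array gave 0.06, and leaving out the obese original array -0.07. Esr1, the estrogen receptor, read 7.06 and 7.18 on the lean and 8.36 and 8.07 on the obese arrays an obese level 2.14-fold above the lean one (1.86 to 2.47). Nr1i3, the constitutive androstane receptor, which switches on genes for foreign compound breakdown, was at 7.97 and 8.01 on the lean and 7.03 and 6.85 on the obese arrays (2.07-fold lower, 1.91 to 2.24). Ahr, the dioxin receptor, was 1.51-fold lower (1.30 to 1.75), and its difference of -0.59 became -0.39 without the obese technical replicate array, which ends the call. Hnf4a, a regulator of hepatocyte identity and the brightest on the list, differed by 0.11.

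**Figure D4:**
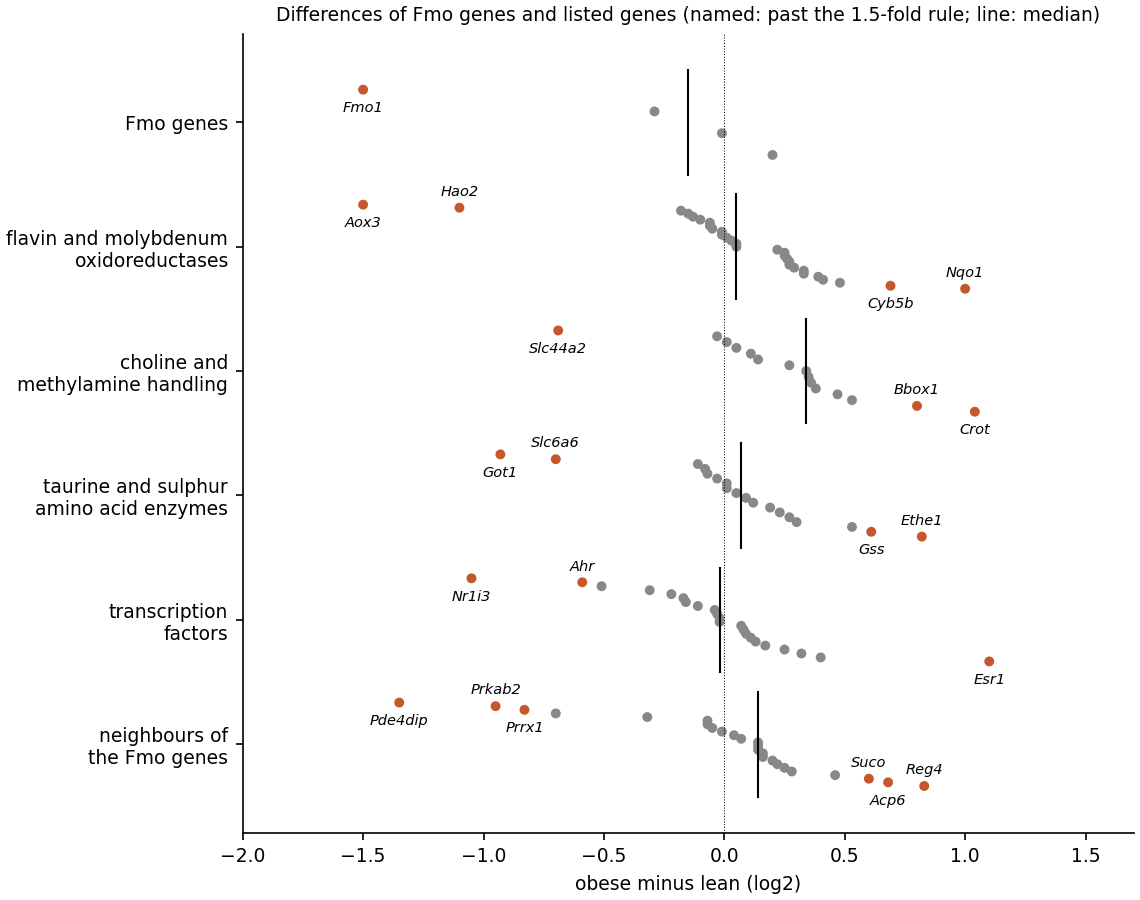
Difference between the pools (horizontal axis, obese minus lean, log2) of each measured gene of the Fmo family and of 5 gene lists (rows), with genes past the 1.5-fold rule in orange and named. Black lines mark the median of a row, from -0.15 for the Fmo genes to 0.34 for choline and methylamine handling.

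Genes beside the Fmo genes on the chromosomes went both ways. The 6 nearest measured genes on either side of a member made 24 genes. Of these 3 were lower, 3 higher and 18 neither (2.43% lower and 2.19% higher over all genes). Their median was 0.14, against 0.03 over all genes and 0.08 for all genes that reached the level filter, as 16 of the 24 did. Leaving out the obese original array gave a median of 0.05, and leaving out the lean original array 0.08. The gene measured just before Fmo4 was Myoc, with a lean level of 5.11 and an obese level of 4.41, both under the level filter, and a difference of -0.70. Just after Fmo2 came Prrx1, a homeobox factor of mesenchymal cells, at 5.64 and 4.81, a difference of -0.83. Between them Fmo4 (0.20) and Fmo2 (-0.01) lay on either side of Fmo1 (-1.50). Suco, the farthest of the 6 before Fmo4, had a difference of 0.60, and its call was lost without the lean original array (0.58) or without the obese original array (0.38).

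Around Fmo5, Prkab2, a subunit of AMP-activated kinase, was 1.93-fold lower (1.68 to 2.22). Without the lean technical replicate array its difference stayed past the size of the rule (-0.86). Its call was lost there because the remaining lean array, at 5.45, fell under the level filter. Pde4dip, which anchors a phosphodiesterase and is also expressed in muscle, was 2.55-fold lower (2.31 to 2.82). The part of muscle RNA in the differences of Prkab2 and Pde4dip was not tested. Acp6, a lysophosphatidic acid phosphatase, was 1.60-fold higher (1.45 to 1.76), with a difference of 0.68 that became 0.55 without the obese original array, which ends the call. Reg4, a secreted lectin, was 1.78-fold higher (1.51 to 2.10). The obese levels of Prkab2 and Prrx1 and the lean level of Reg4 were under the level filter, which leaves the size of these folds uncertain. Or13l2, just before Fmo5, was below the level filter in both pools and differed by -0.32 (-0.71 to 0.06). Sec22b, the brightest of the 24 neighbours, differed by 0.46.

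**Figure D5:**
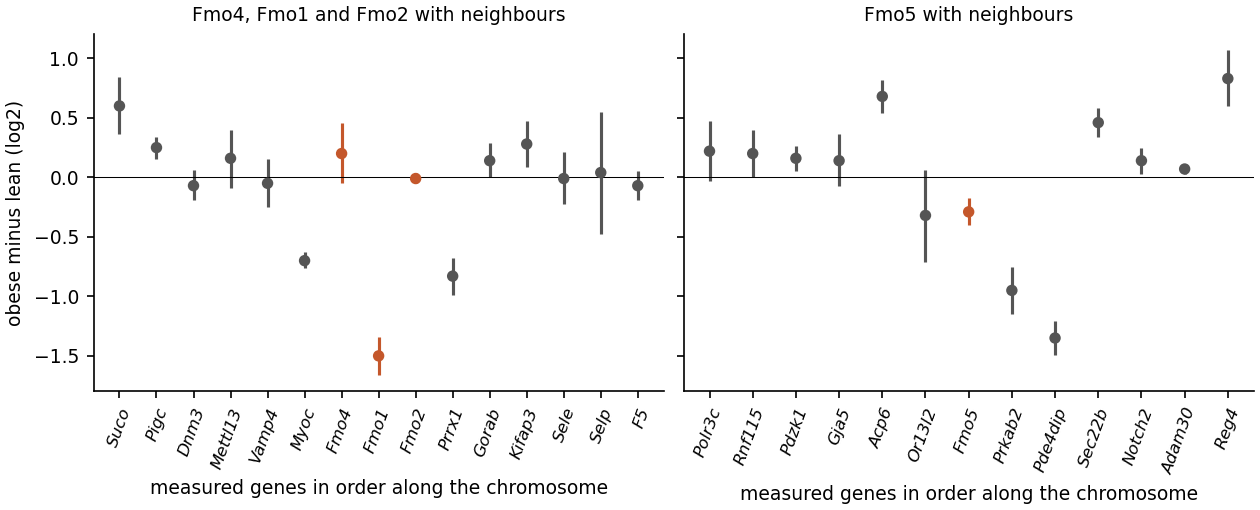
Difference between the pools (vertical axis, obese minus lean, log2; points are means, lines the range over 4 array pairs) for Fmo genes (orange) and their measured neighbours (grey) in order along the chromosome (horizontal axis, not to distance). Fmo1, at -1.50, lies between Fmo4 at 0.20 and Fmo2 at -0.01.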

How the data were processed

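Liver RNA pools of lean and obese WNIN/Ob rats were measured on Affymetrix Rat Gene ST arrays. The authors deposited intensities on a linear scale. RMA made them, per the submitters' processing notes. The version, the genome build and the step to a linear scale are not given in the sources used here. Intensities ran from 2.31 to 14288, and log2 was taken here without further normalisation. RMA shrinks differences of very dim probe sets. The platform annotation gave 15310 of 29214 probe sets 1 symbol and 323 several, and 13581 were not named. The gene table of GRCr8 held the identifiers of 15279 and changed 0 symbols. The probe set with the highest mean was taken per gene, which left 14506 genes. The difference is obese minus lean over means of 2 arrays. It was tested on simulated data. A fold range over array pairs covers measurement error only. Only 2 arrays per pool were run, and this number limits the precision.

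The members and gene lists were chosen with earlier results of these data known. Genes named are the members, up to 4 genes per list past the 1.5-fold rule with the brightest of the list, the 6 genes nearest to a member past the rule, the first markers of a list and the direct neighbours of members. The stellate cell markers Pdgfrb, Col1a1 and Dcn were named outside the rule, to show which markers of that list changed. Alternatives were leaving out arrays, quantile normalisation, cyclic loess (limma 3.58.1 in R 4.3.3), median centring, an offset of 16 before log2, the mean of all probe sets and no level filter. Python 3.11.15 with pandas 2.3.3 was used.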

Additional observations from a re-analysis of the deposited data

How the results depend on the processing

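Fmo1 kept its direction and its call, and Fmo2, Fmo4 and Fmo5 kept the absence of a call, under all 12 alternatives run. Many of these could not have changed the call of Fmo1. Its nearest arrays lay 1.34 apart, past the size of the rule, so leaving out arrays had to keep its call. Each member has 1 probe set and reached the level filter in both pools. The mean of all probe sets and no level filter therefore could not change a member's call. Leaving out arrays, singly or the same run in both pools, gave -1.66 to -1.34 for Fmo1, -0.04 to 0.03 for Fmo2, -0.03 to 0.43 for Fmo4 and -0.40 to -0.17 for Fmo5. Medians without the obese original array were 0.20 for choline and methylamine handling and -0.07 for transcription factors. Without the obese technical replicate array they were 0.39 for choline and methylamine handling, 0.18 for flavin and molybdenum oxidoreductases and 0.06 for transcription factors, and on the technical replicate arrays alone the choline and methylamine median was 0.22. The sign of Fmo2 and of Fmo4 therefore hung on the arrays used. Over the same settings the medians ran from 0.20 to 0.41 for choline and methylamine handling, 0.06 to 0.20 for flavin and molybdenum oxidoreductases, 0.06 to 0.09 for taurine and sulphur amino acid enzymes, -0.11 to 0.07 for transcription factors and 0.01 to 0.19 for neighbours. Cyclic loess gave -0.05 for Fmo2 and medians of 0.25 for choline and methylamine handling, -0.10 for transcription factors and 0.00 for taurine and sulphur amino acid enzymes, whose median was 0.02 with quantile normalisation and 0.09 with median centring. Genes 1.5-fold higher in the obese pool numbered 317, or 258 to 615 when arrays were left out, and 553 without the obese technical replicate array. Genes 1.5-fold lower numbered 352, or 335 to 421. Cyclic loess moved the split of 317 higher and 352 lower to 227 higher and 400 lower. The cause was not tested. Among the other listed genes, Gss and Suco also lost their calls under quantile normalisation, cyclic loess and the offset of 16, Ahr under median centring and the offset, and Prrx1 under the offset. No paired analysis was possible because each phenotype is 1 pool and no test was run. Without detection calls, no signal over background is known, which limits Fmo2 and Fmo4 most.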
